A study of Mus musculus with 108 samples.

Results

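The nuclear-encoded subunits of the respiratory chain and of ATP synthase were described in single cells of cultured mouse germline stem cells. Members were the genes whose symbol matched a fixed set of names (Nduf followed by a, b, c, s or v and a number, Sdha to Sdhd, Uqcr, Cox4 to Cox8, and Atp5), and 85 of the 26218 genes in the table matched. By name, 82 of them are subunits: 35 of complex I, 4 of complex II, 8 of complex III, 20 of complex IV and 15 of ATP synthase. Ndufa4 and Ndufa4l2 were counted with complex IV, where the Ndufa4 protein is now placed. The other 3 matches, Atp5s, Atp5sl and Cox4nb, are not subunits and entered the counts of matching genes only. The 13 subunits encoded by mitochondrial DNA were not analysed here.

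The study compared germline stem cell-like cells (GSCLCs), which are grown from pluripotent stem cells by way of reconstituted testes, with germline stem cells (GSCs), which are spermatogonial stem cells cultured from testes. Each library was 1 cell, amplified by SC3-seq, which counts reads at the 3′ ends of mRNAs. The GSCLC lines were GSCLC1, with 30 cells, and GSCLC4, with 24 cells, which came from reconstituted testes that had been held at 34 °C for 3 weeks. The GSC lines were GSC1, with 30 cells of which 29 were used, and GSC2, with 24 cells, which was established separately from testes at postnatal day 7. All 4 lines had the background 129/SvJcl x C57BL/6 and carried the AcrAct_EGFP reporter. All were grown in the same medium with GDNF, bFGF, LIF and EGF. Cells of a line share their culture, so the line was the unit of each test, with 2 GSCLC lines against 2 GSC lines.

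Complex I takes electrons from NADH and complex II takes them from succinate, and both pass them to ubiquinone. Complex III hands them to cytochrome c, and complex IV hands them to oxygen. Complexes I, III and IV pump protons across the inner mitochondrial membrane, and ATP synthase uses the returning protons to make ATP. Several complex IV subunits, and the carriers around it, have a broad form and a form found in muscle, in lung or in the male germ line. Spermatogonial stem cells are generally described as relying much on glycolysis, with a larger part for respiration as germ cells differentiate.

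Levels are in RPM, reads scaled to the size of each cell's library of gene reads. Because the reads come from 3′ ends, RPM is not divided by transcript length, and this holds for every level and share set between genes below. One GSC1 cell was left out of all values: it had 5748 detected genes, where all other cells had at least 7305, and its summed level of 14 fibroblast and feeder markers was 55953 RPM, where no other cell passed 5953 RPM. Its germ cell marker sum was 1363 RPM. In the 54 GSCLC and 53 GSC cells kept, the 15 germ cell markers were summed. The line means were 6392 RPM in GSCLC1, 5958 RPM in GSCLC4, 5918 RPM in GSC1 and 6075 RPM in GSC2. Most of each sum was Dazl, with 3521 and 3450 RPM in the GSCLC lines, against 3285 and 3457 RPM in the GSC lines. Dazl and Ddx4 were high in all lines, but not all the markers were. Nanos2 was at no more than 16.7 RPM in any line and Lin28a at no more than 5.56 RPM. Of the 14 markers tested, 6 were higher and 8 lower in GSCLC, none passing an adjusted p of 0.05 (limma). The largest difference was that of Pou3f1 (log2 -1.35). The median depth was 3.19 M and 3.27 M estimated reads per cell in the GSCLC lines and 3.72 M and 4.30 M in the GSC lines (two-sided exact permutation test over lines, p = 0.333, which is the lowest p possible with 4 lines). The serial numbers in the titles fall in a separate block for each line, with GSC1 in 2 blocks, so serial number and line cannot be told apart.

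Subunit mRNAs were a sizeable and even share of the transcriptome. The 82 subunits summed to 2.39% of gene reads in GSCLC1, 2.19% in GSCLC4, 2.36% in GSC1 and 2.40% in GSC2. Complex IV and ATP synthase each held more reads than complex I, although complex I has the most subunits. Complex IV summed to 7425 and 6548 RPM in GSCLC1 and GSCLC4, against 7901 and 8054 RPM in GSC1 and GSC2, so both GSCLC lines were below both GSC lines (log2 difference of the sums -0.19). Complex III summed to 1885 and 1653 RPM in the GSCLC lines, against 1923 and 1927 RPM in the GSC lines, in the same order (log2 -0.13). Complex II summed to 559 and 552 RPM in the GSCLC lines, against 457 and 496 RPM in the GSC lines, with both GSCLC lines above (log2 0.22). Complex I summed to 6492 and 6202 RPM in the GSCLC lines, against 6463 and 6414 RPM in the GSC lines, and the lines overlapped (log2 -0.02). ATP synthase summed to 7577 and 6899 RPM in the GSCLC lines, against 6807 and 7108 RPM in the GSC lines, again with overlap (log2 0.06). These sums carry no test. Relative to spike-in RNA, the ATP synthase difference turned to -0.05. The sums of the other complexes moved down as well, and the median of all tested genes moved from 0.03 to -0.05, so this shift was not particular to ATP synthase.

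**Figure D1:**
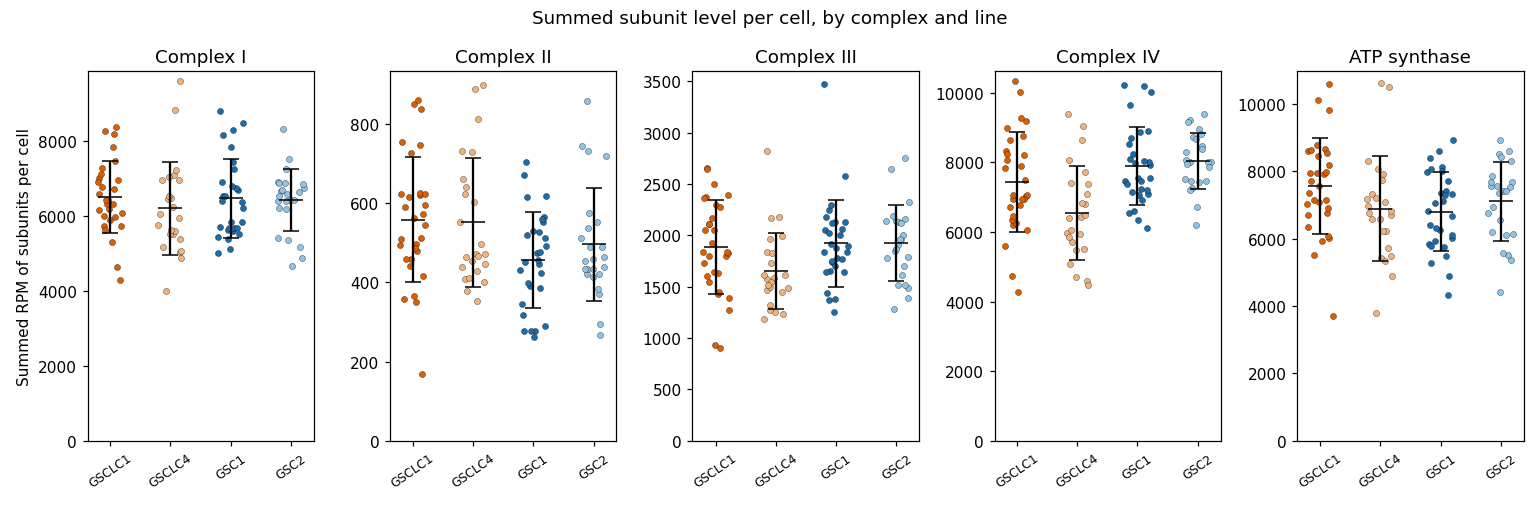
Summed level of the subunits of each complex in every cell (RPM, linear axes from 0), by line, with horizontal bars at the line mean and error bars of 1 SD over the cells of the line. The cells of the 4 lines overlap widely in all 5 panels, and the GSCLC4 mean of complex IV, 6548 RPM, is the lowest of the 4.

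Differences between the types were small for these genes. Of the 85 matching genes, 80 passed the filter of at least 5 RPM in at least 2 lines and were tested. None of the 80 passed an adjusted p of 0.05 (limma on log2(line mean RPM + 1), Benjamini-Hochberg over 10519 genes). Of all genes 0.0951% did, 10 in number, with 0.0665% higher and 0.0285% lower in GSCLC. At an unadjusted p under 0.05, 4 of the 80 passed, beside 8.93% of all genes: Sdha was higher in GSCLC, beside 5.07% of all genes, and Cox8a, Cox5b and Cox6a1 were lower, beside 3.86%. By the same fit without moderation of the variance, 0 members passed after adjustment and 2 at an unadjusted p under 0.05, beside 6.59% of all genes. The log2 differences of the 80 had a median of -0.01 and an 80% range of -0.35 to 0.23, and none was beyond 1. Over all genes the median was 0.03, the same range ran from -0.60 to 0.74, and 9.81% lay beyond 1. Among the 2265 genes with at least 100 RPM, a level that 64 of the members reach, that range was -0.34 to 0.36, close to that of the members. Both GSCLC lines were above both GSC lines for 12 of the 80, beside 21.4% of all genes, and below for 19, beside 17.6%, together 31 without overlap beside 39.1%.

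**Figure D2:**
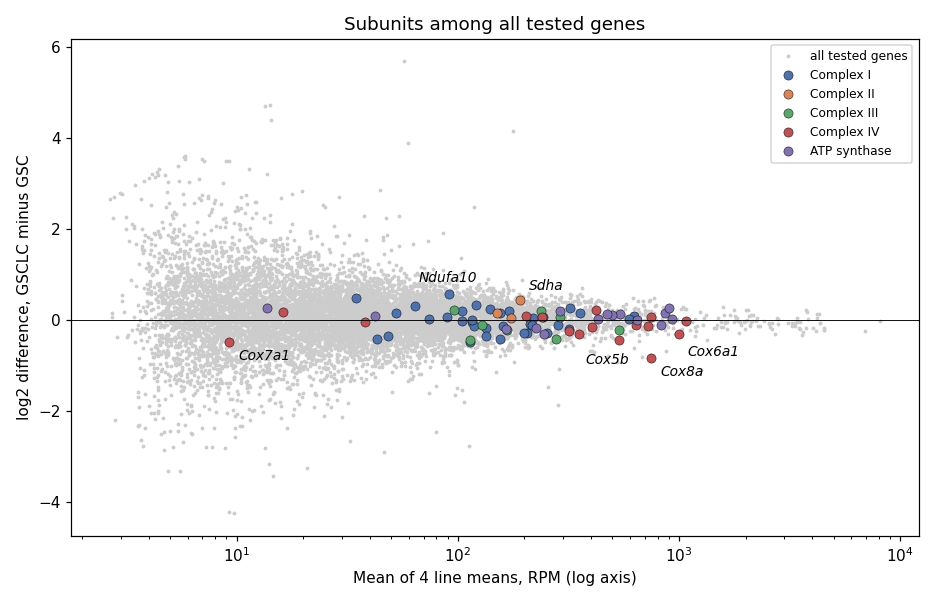
Log2 difference, GSCLC minus GSC, of each tested gene (grey) and each of the 77 tested subunits (coloured by complex) against its mean level over the 4 lines (RPM, log axis). Most subunits lie in the narrow band of highly expressed genes, while some, such as Cox7a1 (9.27 RPM) and Atp5d (13.7 RPM), have low levels. Cox8a at -0.83 is the subunit farthest from 0.

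Complex IV had the member with the largest difference. Cox8a, the broad form of the small subunit VIII (Entrez 12868, GRCm38.p6 chromosome 19, 7215158 to 7217616), averaged 628 RPM in GSCLC1 and 456 RPM in GSCLC4, against 1021 RPM in GSC1 and 887 RPM in GSC2. Its cells had a lowest, median and highest value of 300, 594 and 1422 RPM in GSCLC1 and of 189, 436 and 909 RPM in GSCLC4. The same values were 485, 987 and 1859 RPM in GSC1 and 515, 850.2 and 1354 RPM in GSC2. Both GSCLC medians were thus below both GSC medians, while the cells of the lines overlapped. The log2 difference was -0.83 (SE 0.17, 95% interval -1.20 to -0.46), and the adjusted p of 0.129 missed the threshold (limma). Without line GSCLC1 the difference was -1.06 and passed, with an adjusted p of 0.00609. That fit assumes that the lone GSCLC4 mean varies like the other lines. Over the 17 alternatives the difference was between -1.06 and -0.60 and the adjusted p between 0.00609 and 0.758.

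Other measures moved in the same direction between these lines. The 14 fibroblast and feeder markers summed to line means of 319 RPM in GSCLC1 and 545 RPM in GSCLC4, against 1120 RPM in GSC1 and 755 RPM in GSC2. Over single cells that sum ran from 26.1 to 1142 RPM in the GSCLC lines and from 156.9 to 5953 RPM in the GSC lines. Of the 7 of these markers that were tested, 2 were higher and 5 lower in GSCLC, 1 of them called (S100a6). The lower were Lgals1 (log2 -1.86), S100a6 (-1.79), Vim (-1.49), Sparc (-0.69) and Col1a1 (-0.42). The higher were Postn (log2 2.40) and Fn1 (0.25). The difference in the sum thus came mostly from Lgals1, Vim and S100a6, and not from all the markers. Col1a2, Col3a1, Col6a1, Dcn and Thbs1 were at no more than 1.85 RPM in any line, and Lum was at 0 in all lines. The left-out cell, in which these markers were far higher, had 1158 RPM of Cox8a, inside the range of the GSC1 cells. Depth was also lower in both GSCLC lines, as given above. The part of depth and of these markers in the Cox8a difference was not tested. In the GSC1 cells of serial 65 to 80 Cox8a averaged 959.6 RPM, and in those of serial 129 to 150 it averaged 1071 RPM, both above the GSCLC means.

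A further 4 complex IV genes were lower in both GSCLC lines than in both GSC lines. Cox5b, a matrix-side subunit that binds zinc, averaged 488 and 419 RPM in GSCLC1 and GSCLC4, against 579 and 653 RPM in GSC1 and GSC2 (log2 -0.44, SE 0.16, 95% interval -0.79 to -0.10, adjusted p = 0.477); it lay outside the rule for named genes and is given because its unadjusted p was under 0.05. Cox6a1, the broad form of subunit VIa, averaged 972 and 810.2 RPM in the GSCLC lines, against 1047 and 1160.4 RPM in the GSC lines (log2 -0.31, SE 0.14, adjusted p = 0.559). Cox7a2, the broad form of subunit VIIa, averaged 305 and 325 RPM in the GSCLC lines, against 418 and 369.7 RPM in the GSC lines (log2 -0.32, adjusted p = 0.620). None of them passed the adjusted test. Cox7a2l, which encodes a relative of this subunit that joins complexes III and IV in supercomplexes, averaged 298 and 286 RPM in the GSCLC lines, against 341 and 348 RPM in the GSC lines (log2 -0.24). In all, 5 of 16 tested complex IV genes were below in both lines, beside 17.6% of all genes, and 0 of 16 were above, beside 21.4%.

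The central subunit Cox4i1 was even over the lines, with 1074 and 1064 RPM in GSCLC1 and GSCLC4, against 1119 and 1062 RPM in GSC1 and GSC2. Its highest line mean was 1.05 times its lowest, the smallest such ratio of the 80. Ndufa4 was also even, with 784 and 738 RPM in the GSCLC lines, against 740.4 and 724 RPM in the GSC lines. Cox7c, a small subunit, averaged 616 and 614 RPM in the GSCLC lines, against 608 and 727 RPM in the GSC lines. Cox6c had 530.3 and 377 RPM in the GSCLC lines, against 374 and 400.2 RPM in the GSC lines, with the high value in GSCLC1 alone. In 50.5% of cells the Cox6c value was not a whole number of reads (tolerance 0.05 read), and in 31.8% the Cox7c value was not. The sources used here do not say how reads shared with near-identical copies were counted, so the levels of the 16 members with more than 10% of such values are uncertain.

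**Figure D3:**
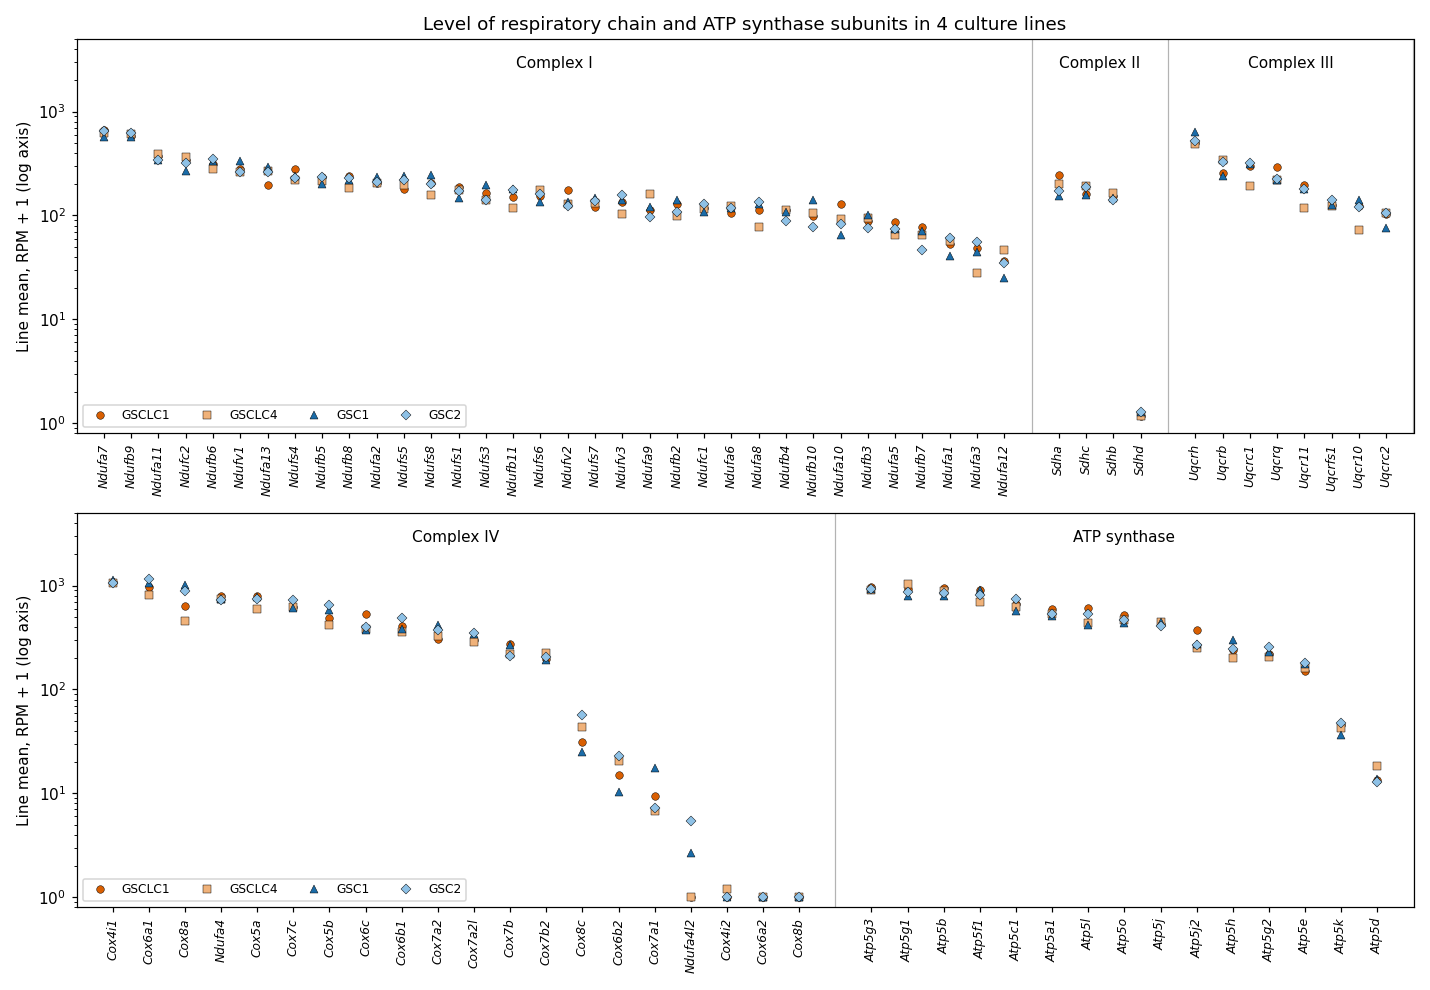
Mean level of 81 of the 82 subunits in each line (RPM + 1, log axis), ordered by level within each complex, with 1 symbol per line and no error bar. The 4 symbols lie close together for most subunits, and Sdhd, Cox4i2, Cox6a2 and Cox8b lie at or near 0 in all lines.

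Complex I showed no shared direction. Of its 35 subunits, all tested, 17 had a positive and 18 a negative log2 difference, with a median of -0.01. Both GSCLC lines were above both GSC lines for 6, beside 21.4% of all genes, and below for 7, beside 17.6%, so both counts were near the background. The subunit with the highest level, Ndufa7, an accessory subunit, averaged 664 and 626 RPM in GSCLC1 and GSCLC4, against 567 and 652 RPM in GSC1 and GSC2. Ndufb9, another accessory subunit, averaged 582 and 609 RPM in the GSCLC lines, against 562 and 619 RPM in the GSC lines. Ndufa11, which sits in the membrane arm, averaged 369.9 and 386 RPM in the GSCLC lines, against 338 and 338 RPM in the GSC lines, and 48.6% of its values were off whole reads. All 3 differed by little between lines.

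Core subunits of complex I hold the flavin and the iron-sulfur clusters. The 3 accessory subunits above were named for the highest levels of the complex, so core subunits could only be lower than these. Other accessory subunits, such as Ndufa12 and Ndufa3, were below the core subunits described here (means over the 4 lines of 34.7 and 43.2 RPM). The highest core subunit described was Ndufv1, which binds NADH, with 280.4 and 263 RPM in the GSCLC lines, against 335 and 260.2 RPM in the GSC lines. Ndufs1, the largest core subunit, averaged 188 and 174 RPM in the GSCLC lines, against 148 and 170.5 RPM in the GSC lines. Ndufs3, Ndufs7, Ndufs8 and Ndufv2 had line means between 120.1 and 243 RPM. The core subunits are outside the rule for named genes.

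The largest positive difference of complex I was that of Ndufa10, an accessory subunit, with 128 and 90.9 RPM in GSCLC1 and GSCLC4, against 64.2 and 81.9 RPM in GSC1 and GSC2 (log2 0.57, SE 0.27, 95% interval -0.03 to 1.16, adjusted p = 0.585). Ndufa12, at the matrix arm, averaged 35.4 and 45.4 RPM in the GSCLC lines, against 23.9 and 34.2 RPM in the GSC lines (log2 0.47), and 40% of its values were not whole reads. On the other side stood Ndufa8, with 112.9 and 77.1 RPM in the GSCLC lines, against 129 and 135 RPM in the GSC lines (log2 -0.50, SE 0.25, adjusted p = 0.603). Ndufa3 averaged 47.9 and 26.95 RPM in the GSCLC lines, against 43.02 and 55.1 RPM in the GSC lines (log2 -0.43, adjusted p = 0.796), and its lines overlapped. None of these 4 accessory subunits passed the threshold.

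Complex II is succinate dehydrogenase, which also works in the Krebs cycle. Its flavoprotein Sdha, the catalytic subunit (Entrez 66945, chromosome 13, 74322255 to 74350240), averaged 244 and 199 RPM in GSCLC1 and GSCLC4, against 152.5 and 170.4 RPM in GSC1 and GSC2. Both GSCLC lines were above both GSC lines (log2 0.45, SE 0.21, 95% interval 0.0017 to 0.89), but the adjusted p of 0.559 missed the threshold (limma). The iron-sulfur subunit Sdhb averaged 153.02 and 163.3 RPM in the GSCLC lines, against 146.8 and 139.3 RPM in the GSC lines (log2 0.14). The membrane anchor Sdhc averaged 161.2 and 189.5 RPM in the GSCLC lines, against 157.3 and 186.1 RPM in the GSC lines (log2 0.03), with overlap.

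The other anchor, Sdhd (Entrez 66925, chromosome 9, 50596340 to 50603849), stood apart from its partners. Its line means were 0.172 and 0.172 RPM in the GSCLC lines, against 0.282 and 0.295 RPM in the GSC lines. It was above 0 in 6 of 30 and 9 of 24 GSCLC cells, against 10 of 29 and 11 of 24 GSC cells, and in no cell did it reach 5 RPM. Succinate dehydrogenase needs both anchors, so a level this far below those of Sdha, Sdhb and Sdhc is given as what the table lists. Whether reads of Sdhd were lost in mapping or counting was not tested.

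Complex III had 3 subunits with a positive and 5 with a negative log2 difference, with a median of -0.16. Both GSCLC lines were below both GSC lines for 3 of its 8 subunits, beside 17.6% of all genes, and above for none. Uqcrc1, a core subunit, averaged 295 and 189 RPM in GSCLC1 and GSCLC4, against 314 and 316 RPM in GSC1 and GSC2 (log2 -0.41, SE 0.22, adjusted p = 0.620). Its core partner Uqcrc2 went the other way, with 101.3 and 104.9 RPM in the GSCLC lines, against 74.3 and 105.3 RPM in the GSC lines (log2 0.22). The Uqcrc1 difference came mainly from GSCLC4. Uqcr10, a small subunit, averaged 124 and 71.8 RPM in the GSCLC lines, against 139 and 120.1 RPM in the GSC lines (log2 -0.45, adjusted p = 0.685). Uqcrh, the hinge protein that binds cytochrome c1, had the highest level of the complex, 495 and 489.9 RPM in the GSCLC lines, against 632 and 518 RPM in the GSC lines (log2 -0.22), and 54.2% of its values were off whole reads. Uqcrb varied by line and not by type, with 255 and 339 RPM in the GSCLC lines, against 241 and 328 RPM in the GSC lines. Uqcrq averaged 294 and 218 RPM in the GSCLC lines, against 219 and 222 RPM in the GSC lines (log2 0.20).

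ATP synthase had 10 subunits with a positive and 5 with a negative log2 difference, with a median of 0.08, and 52.8% of all genes were positive. Both GSCLC lines were above both GSC lines for 4 of its 15 subunits, beside 21.4% of all genes, and below for 3, beside 17.6%. The catalytic β subunit Atp5b averaged 942 and 882 RPM in GSCLC1 and GSCLC4, against 794 and 853 RPM in GSC1 and GSC2 (log2 0.15, adjusted p = 0.815). The δ subunit of the central stalk, Atp5d, was far lower at 12.5 and 17.5 RPM in the GSCLC lines, against 12.7 and 11.9 RPM in the GSC lines, and it was at 0 in 1 cell. Atp5e, which encodes the ε subunit, averaged 148 and 159.9 RPM in the GSCLC lines, against 174 and 178 RPM in the GSC lines (log2 -0.19). The stalk subunit Atp5h averaged 236 and 201 RPM in the GSCLC lines, against 299.9 and 242 RPM in the GSC lines (log2 -0.30, adjusted p = 0.691), and 31.8% of its values were off whole reads. Both Atp5e and Atp5h were below in both GSCLC lines, and neither passed the threshold.

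The membrane ring of ATP synthase is built from 1 mature protein, subunit c, that 3 genes encode with different import sequences. Atp5g1 averaged 924 and 1041 RPM in GSCLC1 and GSCLC4, against 791 and 858 RPM in GSC1 and GSC2 (log2 0.25, 95% interval -0.05 to 0.55, adjusted p = 0.634). Atp5g3 averaged 976 and 901 RPM in the GSCLC lines, against 915 and 924 RPM in the GSC lines (log2 0.03). Atp5g2 was the lowest of the set, with 217 and 206 RPM in the GSCLC lines, against 229 and 253 RPM in the GSC lines (log2 -0.19), and 44.9% of its values were not whole reads. Atp5g1 and Atp5g3 shared most of the reads. Atp5g1 held 43.6% and 48.5% of the set in the GSCLC lines, against 40.9% and 42.2% in the GSC lines, and Atp5g2 held 10.2% and 9.60%, against 11.8% and 12.4%. Cell by cell the leading gene changed: Atp5g1 was highest in 29 of 54 GSCLC cells and 23 of 53 GSC cells, and Atp5g3 in the other cells.

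Forms of complex IV subunits known from muscle, lung or hypoxia were at 0 or low. The muscle forms Cox6a2 and Cox8b were at 0 in all 54 GSCLC and 53 GSC cells, which allows each up to 2.80% of cells with a read and a level of up to 0.00778 RPM over all libraries. These limits cover counting error only: mRNA lost before sequencing is not in them, so they do not limit the share of cells that express the gene. The lung and hypoxia form Cox4i2 was above 0 in 2 of 54 GSCLC cells and 0 of 53 GSC cells. The muscle form Cox7a1 was present at a low level, with line means of 8.46 and 5.82 RPM in GSCLC1 and GSCLC4, against 16.6 and 6.18 RPM in GSC1 and GSC2 (log2 -0.48, adjusted p = 0.894). It was above 0 in 21 of 54 GSCLC cells and 29 of 53 GSC cells. Its GSC1 level differed between the serial blocks, with 7.31 RPM in serials 65 to 80 and 24.2 RPM in serials 129 to 150. Of the 12 striated muscle markers, which summed to between 11.6 and 33.6 RPM by line, only Tnni3 passed the filter. Ndufa4l2, a form of Ndufa4 known to be induced by hypoxia, was above 0 in 1 of 54 GSCLC cells and 10 of 53 GSC cells, with line means of 0 and 0.0136 RPM in the GSCLC lines, against 1.65 and 4.45 RPM in the GSC lines. It did not pass the filter, and that difference carries no test.

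Of the 3 testis forms, Cox7b2 was a main form of its subunit. Cox7b2 (Entrez 78174, chromosome 5, 71442823 to 71548205) averaged 196 and 224 RPM in GSCLC1 and GSCLC4, against 189.8 and 205 RPM in GSC1 and GSC2 (log2 0.09, 95% interval -0.33 to 0.51, adjusted p = 0.939). Its X-linked broad partner Cox7b (Entrez 66142, chromosome X, 106015700 to 106022450) averaged 275 and 219 RPM in the GSCLC lines, against 265 and 207 RPM in the GSC lines (log2 0.07, adjusted p = 0.960). Thus Cox7b2 made up 41.6% and 50.6% of their sum in the GSCLC lines, against 41.8% and 49.7% in the GSC lines. The share was near equal parts in GSCLC4 and GSC2 and lower in GSCLC1 and GSC1. Within GSC1 it was 48.6% in the 13 cells of serial 65 to 80 and 36.2% in the 16 cells of serial 129 to 150, so it differed as much within that line as between lines. All 54 GSCLC cells and all 53 GSC cells had at least 5 RPM of Cox7b2, with a range of 14.2 to 682 RPM, and no value of it was off a whole number of reads. In the left-out cell Cox7b2 was at 0 and Cox7b at 898 RPM.

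**Figure D4:**
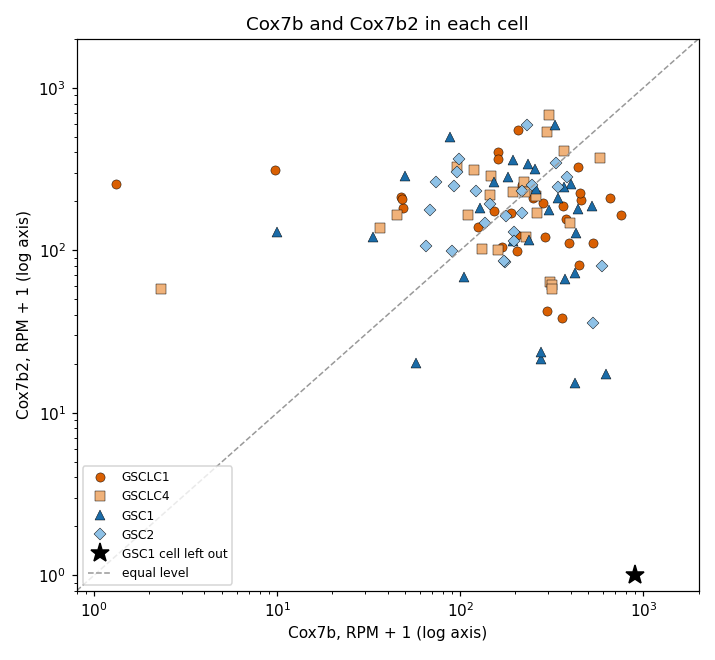
Level of Cox7b2 against Cox7b in each cell (RPM + 1, both log axes), by line, with a dashed line at equal levels and a star for the left-out GSC1 cell. The points lie on both sides of the dashed line, with Cox7b2 the higher in 25 of 54 GSCLC cells and 25 of 53 GSC cells, and the star lies at the bottom right with no Cox7b2.

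Cox7b2 exceeded Cox7b in 11 of 30 GSCLC1 cells and 14 of 24 GSCLC4 cells, against 11 of 29 GSC1 cells and 14 of 24 GSC2 cells. Over the cells of a line, the correlation of their log2 levels was -0.29 in GSCLC1 and 0.33 in GSCLC4, against -0.10 in GSC1 and -0.20 in GSC2 (Pearson's r over 30, 24, 29 and 24 cells, values that share their libraries and depth). The sign was not the same in all lines. Both genes varied much from cell to cell, with a median coefficient of variation over the lines of 64.0% for Cox7b2 and 63.6% for Cox7b.

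The other testis forms were minor. Cox8c (Entrez 75483, chromosome 12, 102899306 to 102900534) averaged 29.9 and 42.1 RPM in GSCLC1 and GSCLC4, against 24.0 and 56.3 RPM in GSC1 and GSC2 (log2 -0.05, 95% interval -0.997 to 0.89). It made up 4.55% and 8.45% of the Cox8 reads in the GSCLC lines, against 2.30% and 5.98% in the GSC lines. It was above 0 in 43 of 54 GSCLC cells and 40 of 53 GSC cells, and never above Cox8a. With each cell thinned to 2000293 reads it was above 0 in 22 and 20 cells of the GSCLC lines, against 17 and 21 cells of the GSC lines. Cox6b2 (Entrez 333182, chromosome 7, 4751792 to 4753094) averaged 14.1 and 19.5 RPM in the GSCLC lines, against 9.40 and 22.1 RPM in the GSC lines (log2 0.18, 95% interval -1.01 to 1.38). It was above 0 in 31 of 54 GSCLC cells and 29 of 53 GSC cells, and exceeded its broad partner Cox6b1 in 1 cell, of GSCLC4. Cox6b1 averaged 410.4 and 354 RPM in the GSCLC lines, against 377 and 481 RPM in the GSC lines. Both minor forms were highest in GSC2 and lowest in GSC1, so the lines of 1 type differed more than the types did. Their sizes over cells were skewed, and with the median over cells in place of the mean the log2 difference was 1.06 for Cox8c and -0.95 for Cox6b2, neither passing the threshold.

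**Figure D5:**
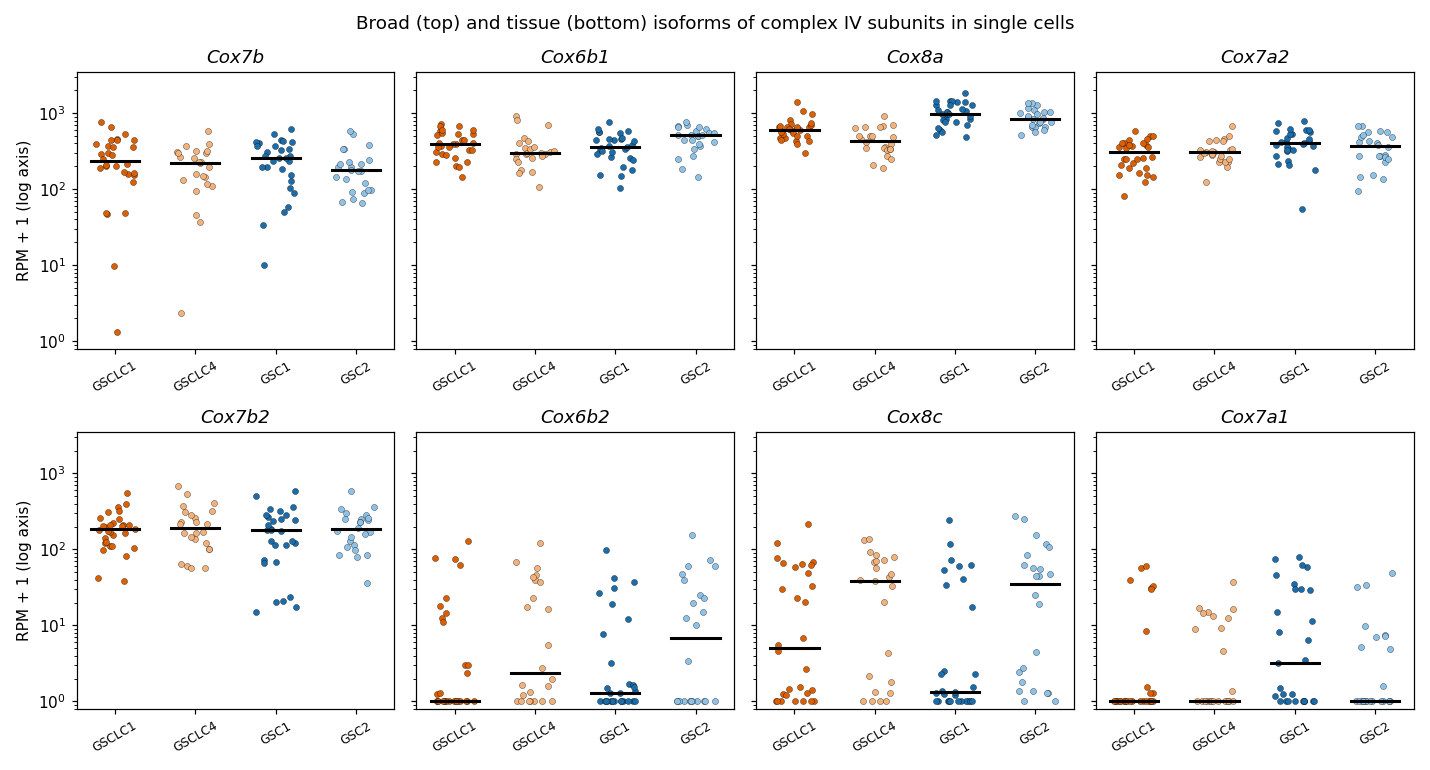
Level of 4 broad complex IV genes (top) and 4 tissue isoforms (bottom) in each cell (RPM + 1, log axes), by line, with a bar at the median of the line. Cox7b2 is above 10 RPM in all cells, while Cox6b2, Cox8c and Cox7a1 have many cells at or near 0, and Cox8a is lower in both GSCLC lines.

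The start regions of Cox8a, which had the largest difference, of Cox6a1, and of the broad and testis partners are shown with motifs of factors known to act on respiratory genes. Each line gives the 250 bases before the RefSeq start, 5′ to 3′ on the strand of the gene (GRCm38.p6), and capitals mark a match to a motif of NRF1 (GCGCA, any base, then GCGC), of ETS factors (CCGGAAG) or of YY1 (AANATGGC) on either strand. The broad gene Cox6a1, at chr5:115348959-115349208 on the minus strand, had 2 NRF1 matches and 1 ETS match and is given as the case with most of them. The broad gene Cox6b1, at chr7:30626115-30626364 on the minus strand, had 1 ETS match, and its testis partner Cox6b2, at chr7:4753095-4753344 on the minus strand, had none. Cox7b, at chrX:106015450-106015699 on the plus strand, Cox7b2, at chr5:71548206-71548455 on the minus strand, and Cox8a, at chr19:7217617-7217866 on the minus strand, had none. No match says only that these letters are not in the window. The bases after the RefSeq start were found in a GENCODE transcript for each gene but Cox7b2.
Cox6a1: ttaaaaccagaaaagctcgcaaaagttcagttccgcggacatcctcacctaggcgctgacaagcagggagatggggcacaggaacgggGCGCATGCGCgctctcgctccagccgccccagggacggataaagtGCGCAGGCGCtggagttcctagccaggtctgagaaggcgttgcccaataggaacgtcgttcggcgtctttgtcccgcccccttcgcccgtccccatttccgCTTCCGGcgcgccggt
Cox6b1: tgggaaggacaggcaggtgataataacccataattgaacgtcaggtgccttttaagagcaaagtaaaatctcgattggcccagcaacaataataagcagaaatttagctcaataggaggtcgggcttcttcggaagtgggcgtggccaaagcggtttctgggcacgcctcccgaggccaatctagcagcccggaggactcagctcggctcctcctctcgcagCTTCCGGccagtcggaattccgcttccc
Cox6b2: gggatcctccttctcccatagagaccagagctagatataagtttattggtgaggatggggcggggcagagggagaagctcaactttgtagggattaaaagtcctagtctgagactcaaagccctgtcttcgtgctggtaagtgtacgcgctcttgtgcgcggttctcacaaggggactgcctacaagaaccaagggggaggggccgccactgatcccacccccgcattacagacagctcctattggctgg
Cox7b: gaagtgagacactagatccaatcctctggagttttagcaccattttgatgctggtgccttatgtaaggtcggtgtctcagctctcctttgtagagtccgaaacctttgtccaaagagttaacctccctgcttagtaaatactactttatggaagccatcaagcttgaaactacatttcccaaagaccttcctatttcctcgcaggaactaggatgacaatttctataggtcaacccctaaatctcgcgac
Cox7b2: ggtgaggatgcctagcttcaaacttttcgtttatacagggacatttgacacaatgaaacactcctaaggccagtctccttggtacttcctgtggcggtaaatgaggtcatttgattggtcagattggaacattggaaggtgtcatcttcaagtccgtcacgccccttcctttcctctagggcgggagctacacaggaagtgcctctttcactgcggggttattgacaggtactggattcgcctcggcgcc
Cox8a: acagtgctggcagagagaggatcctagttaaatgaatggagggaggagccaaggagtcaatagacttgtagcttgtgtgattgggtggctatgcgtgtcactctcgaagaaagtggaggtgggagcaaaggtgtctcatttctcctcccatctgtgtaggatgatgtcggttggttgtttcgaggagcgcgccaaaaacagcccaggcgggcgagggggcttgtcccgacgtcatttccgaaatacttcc

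A RefSeq start region was found for 69 of the 85 members. The NRF1 motif occurred in 13 of them (18.8%), beside 4.23% of the 27025 genes with a start region. The ETS motif occurred in 12 (17.4%), beside 7.83%, and the YY1 motif in 7 (10.1%), beside 4.49%. At least 1 of the motifs occurred in 28 members (40.6%), beside 15.1% of genes. The window of the members held a median of 14 CpG dinucleotides, with a range of 1 to 35, beside a median of 6 over all genes, and NRF1 and ETS motifs themselves hold CpG. Among the isoforms above, the window held 26 CpG in Cox6a1, 14 in Cox6b1, 11 in Cox8a, 9 in Cox7b2, 8 in Cox6b2, 5 in Cox7b and 1 in the muscle gene Cox8b. Cox7b, with few CpG and no match, was nonetheless expressed at over 200 RPM in all lines. A match is a description of the letters and not a binding site.

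From cell to cell, the subunits tended to vary less than other well-expressed genes, which were not matched further in level and carry no test here. The median coefficient of variation over cells was 51.6% for the 64 members with at least 100 RPM and 65.4% for the 2265 tested genes with at least 100 RPM. Over all 80 tested members it ran from 32.1% to 219%. The steadiest were Cox6a1 at 32.1%, Ndufa7 at 32.5% and Cox7c at 33.4%. The most variable were Atp5s at 219%, Cox6b2 at 189.7% and Cox7a1 at 179%, all of low level. In all, 60 members were above 0 in every cell. The sum of all subunits had coefficients of variation of 15.0% in GSCLC1 and 17.7% in GSCLC4, against 11.3% in GSC1 and 9.50% in GSC2. A sum over many genes that vary partly apart is steadier than its parts by construction, so these values cannot be set against those of single genes.

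Sums of the complexes I, III, IV and ATP synthase had positive correlations over the cells of each line, some of them near 0. Over the 6 pairs of these log2 sums, Pearson's r ran from 0.36 to 0.68 in GSCLC1 and from 0.39 to 0.76 in GSCLC4, against 0.13 to 0.43 in GSC1 and 0.03 to 0.55 in GSC2. The highest was that of complex IV and ATP synthase in GSCLC4, and the lowest that of complex III and ATP synthase in GSC2. Over its 4 pairs with the others, complex II had values from 0.14 to 0.39 in GSCLC1 and from -0.12 to 0.13 in GSCLC4, against -0.09 to 0.22 in GSC1 and -0.58 to -0.06 in GSC2, so its sign was not the same in all lines. For the pair Atp5a1 and Atp5b, the α and β subunits of the catalytic head, the correlation was 0.27 and 0.68 in the GSCLC lines, against 0.36 and 0.32 in the GSC lines. These are descriptions over 30, 24, 29 and 24 cells, and the points share library, depth and scaling to the same total. The sum of all subunits had a correlation with depth of 0.20 and 0.26 in the GSCLC lines, against 0.04 and 0.32 in the GSC lines. With the spike-in total it was -0.19 in GSCLC1 and 0.61 in GSCLC4, against 0.23 in GSC1 and -0.09 in GSC2. With the number of detected genes it was 0.10 in GSCLC1 and -0.47 in GSCLC4, against -0.23 in GSC1 and 0.05 in GSC2. The part of these measures in the correlations between complexes was not tested.

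Lines of the same type also differed from each other. The median size of the log2 difference over the 80 members was 0.18 between the means of GSCLC and GSC, 0.21 between GSCLC1 and GSCLC4 and 0.18 between GSC1 and GSC2. Over all tested genes the same medians were 0.30, 0.38 and 0.36. The first value of each set is between means over 2 lines, which vary less than single lines. The 3 values are thus not like measures. The highest line mean of a member was a median of 1.34 times its lowest, and for 57 of 80 members it was under 1.5 times. The widest ratio was 2.85, for Cox7a1.

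Genes that work with the chain were described by lists. None of their tested genes passed an adjusted p of 0.05, beside 0.0951% of all genes (limma). Of 45 tested assembly factors 23 had a positive and 22 a negative difference, with a median log2 of 0.01, and 1 passed an unadjusted p of 0.05, beside 8.93% of all genes, so the list held fewer than the background. This was Acn9, an assembly factor of complex II, with 7.68 and 14.4 RPM in GSCLC1 and GSCLC4, against 37.6 and 30.7 RPM in GSC1 and GSC2 (log2 -1.60, SE 0.48, adjusted p = 0.412). Cox16, an assembly factor of complex IV, averaged 27.6 and 25.1 RPM in the GSCLC lines, against 19.9 and 8.59 RPM in the GSC lines (log2 0.95, adjusted p = 0.624). Of 10 tested regulators 5 were positive and 5 negative, the largest being Tfb1m, a mitochondrial rRNA methyltransferase, at log2 1.00 (adjusted p = 0.637) and Gabpb1, a partner of the ETS factor Gabpa, at log2 -0.64. Of 16 tested Krebs cycle enzymes and pyruvate dehydrogenase subunits 8 were positive and 8 negative, with a median of -0.01. Pdhb, a subunit of pyruvate dehydrogenase, averaged 305 and 204 RPM in the GSCLC lines, against 167.5 and 164.7 RPM in the GSC lines (log2 0.58, adjusted p = 0.485), and Suclg2 had a log2 difference of 0.62.

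Of 13 carriers and partners 8 were positive and 5 negative, with a median of 0.07, and 2 passed an unadjusted p of 0.05, beside 8.93% of all genes. Slc25a4, an ADP/ATP carrier of the inner membrane, averaged 180 and 170.3 RPM in GSCLC1 and GSCLC4, against 128 and 89.6 RPM in GSC1 and GSC2 (log2 0.70, SE 0.24, adjusted p = 0.438). Vdac1, a pore of the outer membrane, averaged 31.01 and 15.5 RPM in the GSCLC lines, against 6.66 and 7.48 RPM in the GSC lines (log2 1.51, SE 0.56, adjusted p = 0.479). Both were above in both GSCLC lines, without passing the adjusted threshold.

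The germ line forms of these carriers were expressed in all lines beside the broad forms. Slc25a31, the ADP/ATP carrier of male germ cells, averaged 844 and 1016 RPM in GSCLC1 and GSCLC4, against 691 and 849 RPM in GSC1 and GSC2 (log2 0.27, adjusted p = 0.655). The broad carrier Slc25a5 averaged 328 and 328 RPM in the GSCLC lines, against 343 and 401 RPM in the GSC lines, so the germ cell form was the higher in every line. The testis cytochrome Cyct averaged 199.6 and 311 RPM in the GSCLC lines, against 196 and 246 RPM in the GSC lines (log2 0.18). The broad cytochrome Cycs was higher, with 652 and 719 RPM in the GSCLC lines, against 661 and 641 RPM in the GSC lines. In the left-out cell Slc25a31 was at 1.65 RPM and Cyct at 0.659 RPM. Of the 4 tested genes of the 5 testis isoforms listed, all were positive, beside 52.8% of all genes, with a median log2 of 0.32 and none passing the threshold. For each of the 4 the means of the GSCLC and GSC lines overlapped. The other tested genes of the list were Pdha2, with 13.2 and 29.4 RPM in the GSCLC lines, against 21.1 and 10.7 RPM in the GSC lines, and Ldhc, with 10.9 and 15.7 RPM in the GSCLC lines, against 3.07 and 11.4 RPM in the GSC lines. Genes of spermatocytes and spermatids summed to 237 and 364 RPM in the GSCLC lines, against 203 and 231 RPM in the GSC lines. Most of each sum was Sycp3 and Sycp1. Sycp3 averaged 133.7 and 165.9 RPM in the GSCLC lines, against 137.7 and 104.45 RPM in the GSC lines. Prm1, Prm2, Tnp2 and Acrv1 were at 0 in all lines, and Tnp1 was at no more than 4.24 RPM. Ldhc and Pgk2 are on both this list and that of the testis isoforms. The part of the summed genes in the values above was not tested. Slc25a31, Slc25a5, Cyct and Cycs lie outside the rule for named genes and were chosen after their values were seen.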

How the data were processed

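The data were 1 table of 108 single cells of 4 culture lines. The authors deposited it as RPM signal, with 26218 gene rows and 92 spike-in rows; the spike-ins, 6440 of whose entries are empty, were left out and are not part of the total that RPM is scaled to. The submitters' processing notes name mm10 as build and cutadapt (1.3), TopHat (1.4.1) and Cufflinks (2.2.0) as tools. The counting of reads with several matches is not given in the sources used. The commonest value above 0 in a cell stood for 1 read, and from 85.6% to 92.4% of a cell's values above 0 were then whole reads (tolerance 0.05 read), too few for a count model. Estimated depth was 2.00 M to 6.05 M reads per cell.

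Each gene was averaged over the cells of a line, without 1 GSC1 cell. Genes with at least 5 RPM in at least 2 of 4 lines were tested with limma 3.58.1 in R 4.3.3 (lmFit, eBayes with trend) on log2(line mean + 1), GSCLC minus GSC, with Benjamini-Hochberg adjustment over all tested genes and a threshold of 0.05. This scale understates changes of low genes. Nothing in the labels says that lines other than GSC2 came from separate animals, so p-values measure only the spread between these 4 lines. The fit was tested on simulated data. No 2 cells held identical values. Entrez identifiers were matched to RefSeq for positions (24619 of 26218, and 85 of 85 members).

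The result for 1 complex I subunit is not reported here; it stays in the counts and sums. The members and lists were chosen with earlier results of these data known. Named were the 3 highest, the 2 most positive and the 2 most negative tested members of each complex, all tissue isoform sets, the 3 members with the largest and smallest line ratio and with the highest and lowest variation over cells, and the 2 largest differences of each other list. Alternatives changed the pseudocount, filter, summary over cells, scaling, variance model, cells and lines used, and the test.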

Additional observations from a re-analysis of the deposited data

Results flagged for a closer look

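The GSC1 cell that was left out of every value, and that had high fibroblast and feeder markers, had a level above all 54 GSCLC cells and all 53 other GSC cells for 5 members. Cox6b2, the testis form of subunit VIb, was at 176.4 RPM, where the next highest cell had 152 RPM. Cox7b was at 898 RPM, where the next had 757 RPM. The complex I accessory subunits Ndufb10 and Ndufb11 were at 415 and 759 RPM, where the next cells had 411 and 619 RPM. Uqcr10, of complex III, was at 473 RPM, where the next had 358 RPM. In the same cell 10 members, Cox7b2 among them, were below all other cells, and 70 were within their range. Its subunits summed to 10456 RPM for complex IV, 2951 RPM for complex III and 166.2 RPM for complex II. It is 1 cell, and its values have no replicate. The same counts over all genes are not given here, so these counts do not set the members apart from other genes in this cell.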

How the results depend on the processing

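Each result was recomputed under 17 alternatives. No member passed the adjusted threshold in any of them except Cox8a without line GSCLC1 (log2 -1.06), so the count of members called over the left-out lines was 0 to 1. The count over all genes, 10 as reported, was 3 with a pseudocount of 0.1, 20 with 10, 21 with a filter of 20 RPM, 0 without a filter, 0 with the median over cells, 35 with spike-in scaling, 0 without the variance trend, 0 in the unmoderated test, 4 and 3 with the GSC1 cells below and from serial 129, and 3 to 39 with a line left out (5 without GSC1, 12 without GSC2, 39 without GSCLC1, 3 without GSCLC4). The median log2 difference of the members was 0.042 with the mean of log2 values, where the median of all genes moved to 0.15. With spike-in scaling it was -0.12, where the median of all genes moved to -0.05. Leaving out a line gave a median of the members of -0.046 to 0.0082. The sum of complex I had a log2 difference of -0.063 with the median over cells, -0.055 with median-ratio scaling and -0.12 with spike-in scaling. With spike-in scaling the other sums had 0.14 for complex II, -0.24 for complex III, -0.30 for complex IV and -0.051 for ATP synthase. The cause of these moves was not tested. Among 642 pairs of a named member and an alternative, 52 changed sign, none of them called. With the left-out cell, 8 genes and 0 members were called. No paired analysis was possible because the numbers in the line names mark separate cultures. Depth limits values near 1 read per cell, such as the Cox4i2 value of 0.265 RPM in 1 GSCLC1 cell. Ndufa4l2 was not limited in this way where it was highest, with up to 28.3 RPM in GSC1 and 40.1 RPM in GSC2. With cells thinned to equal depth, Ndufa4l2 was above 0 in 3 GSC1 cells and 6 GSC2 cells, and in 0 cells of both GSCLC lines.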

Other observations

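By serial number the GSC1 cells form 2 runs, of 13 cells (65 to 80) and 16 cells (129 to 150). The sum of all subunits was 23554 RPM in the first and 23549 RPM in the other. Single members differed more: Ndufa5, an accessory subunit of complex I, averaged 38.9 and 99.5 RPM, Ndufa11 243 and 416 RPM, Ndufa4 867 and 637 RPM, and Cox7b2 220.1 and 165.2 RPM. These members were chosen after their values were seen, and all these cells come from 1 line, so no test was made.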
